A study of Mus musculus with 20 samples.

Results

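Antigen receptors of T and B cells and the activating receptors of natural killer (NK) cells pass their signal on through a shared set of kinases, adaptors, lipid enzymes, Ras activators and transcription factors. Of 41 genes of this set, 40 were found among the 18194 genes with a named probe set, each read from whichever of its probe sets had the highest mean, and all 40 passed the filter on dim genes. Lyn was not analysed here. Expression was measured on 20 Affymetrix arrays with biotin-labelled RNA of sorted bone marrow cells, from mice 8 to 14 weeks old. Mature NK cells came from Rag2-deficient mice of the 129 strain that were Ets1-- (2 arrays) or Ets1++ (2 arrays). Such mice make no mature T or B cells. All other groups were wild-type C57bl/6: CD4 T cells (2 arrays), pro-B cells (2), common lymphoid progenitors (CLP, 3), granulocyte-monocyte progenitors (GMP, 3), lymphoid-primed multipotent progenitors (LMPP, 2), multipotent progenitors (MPP, 2) and haematopoietic stem cells (HSC, 2). Strain and Rag2 deficiency cannot be told apart from cell type wherever NK cells are set against another population. Whether replicates are separate animals is not in the labels, so p-values reflect only the spread between these samples, which may be technical.

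As background, an engaged receptor is phosphorylated by a Src family kinase, recruits ZAP-70 or its paralog Syk, and these phosphorylate the adaptors LAT and SLP-76. Phospholipase C gamma, activated there with the help of a Tec family kinase, makes 1 messenger that releases calcium and leads to NFAT, and another that activates protein kinase C and the RasGRP family. T cells are known for their reliance on Zap70, Plcg1, Prkcq and Rasgrp1, and B cells for Syk, Plcg2, Btk, Blk and Prkcb.

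The labels were checked against marker genes, as summed linear intensity. NK markers summed to 21265 to 25952 on the NK arrays and to at most 742 elsewhere. CD4 T markers summed to 5700 to 7243 on the CD4 T arrays and to at most 480 elsewhere. B lineage markers summed to 9777 to 19663 in pro-B cells, 2289 to 2978 in CLP and at most 254 elsewhere. Markers of HSC and multipotent cells summed to 7272 to 10192 in HSC, 3566 to 5459 in MPP and 4665 to 4865 in LMPP. CLP followed at 2174 to 3696, with at most 926 elsewhere. Myeloid markers summed to 30474 to 31032 in GMP and to at most 7218 elsewhere. Erythroid markers were uneven in HSC (282 and 1183) and MPP (208 and 536), with at most 135 elsewhere. Ets1, the targeted gene, had lower means in Ets1-deficient than in Ets1-present NK cells on each of its 4 probe sets, by -0.33 to -1.55 on the log2 scale. Only 1 of the 4 passed the test (-1.55 ± 0.31, SE, adjusted p = 0.00688), and signal remained on all of them. The position of these probes with respect to the deleted part was not analysed here. CLP arrays 1 and 3 stood apart from CLP array 2, with an excess of actin 3' over 5' signal of 5.20 and 5.27 against 3.26 on the log2 scale, and replicate spread (the root mean square over genes of the SD) was 0.561 in CLP and 0.171 in GMP. Centring on housekeeping genes moved the median of all genes to 0.79 for CLP minus LMPP and to -0.67 for pro-B minus CLP, and to between -0.27 and 0.15 in the other 6 comparisons, with the main values between -0.08 and 0.04 in all 8.

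Across the 9 groups the signalling genes were at their highest in CD4 T cells more often than in any other group. Of the 40 members, 20 had their highest mean in CD4 T cells, against 13.7% of all genes tested. The list was a chosen one and holds many genes known from T cell receptor signalling. The part of that choice in this share was not tested. For 16 of these 20, both CD4 T arrays lay above every other array. The share of all genes for which this held was not computed, so whether 16 is unusual cannot be told. Ets1-present NK cells held the highest mean of 7 members, CLP and pro-B cells of 4 each, LMPP of 2, and MPP, GMP and Ets1-deficient NK cells of 1 each. The share of Ets1-present NK cells (17.5%) stood against 13.0% of all genes, those of CLP and of pro-B cells (10% each) against 14.2% and 8.31%, so these were near the share of all genes. HSC held the highest mean of none, against 15.6% of all genes. GMP and Ets1-deficient NK cells (2.5% each) stood against 13.9% and 10.4% of all genes. For MPP (2.5%) and LMPP (5.0%) the shares of all genes were 5.77% and 5.04%. Levels are log2 intensities, on which a difference of 1 is a 2-fold change. In bulk samples, fewer cells of a type and less RNA per cell cannot be told apart. The widest ranges of group means were those of the adhesion receptor Cd2 (8.38), the Ras activator Rasgrp1 (7.63), the adaptor Skap1 (6.93), Prkcb (6.30) and Prkcq (6.09). The narrowest were those of Zap70 (0.65, on a probe set discussed with Syk), the Tec family kinase Tec (1.02), the phosphatase Ptpn6 (1.08), the Src family kinase Fgr (1.36) and the exchange factor Vav2 (1.5). Other probe sets of Fgr and Ptpn6 varied more. The second Fgr probe set averaged 7.28 in Ets1-deficient and 7.11 in Ets1-present NK cells, against group means of 3.66 to 4.87 elsewhere (NK minus CD4 T 2.32 ± 0.32, adjusted p = 1.95e-05 over probe sets), and the second Ptpn6 probe set averaged 7.96 in CLP to 10.60 in CD4 T cells.

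**Figure D1:**
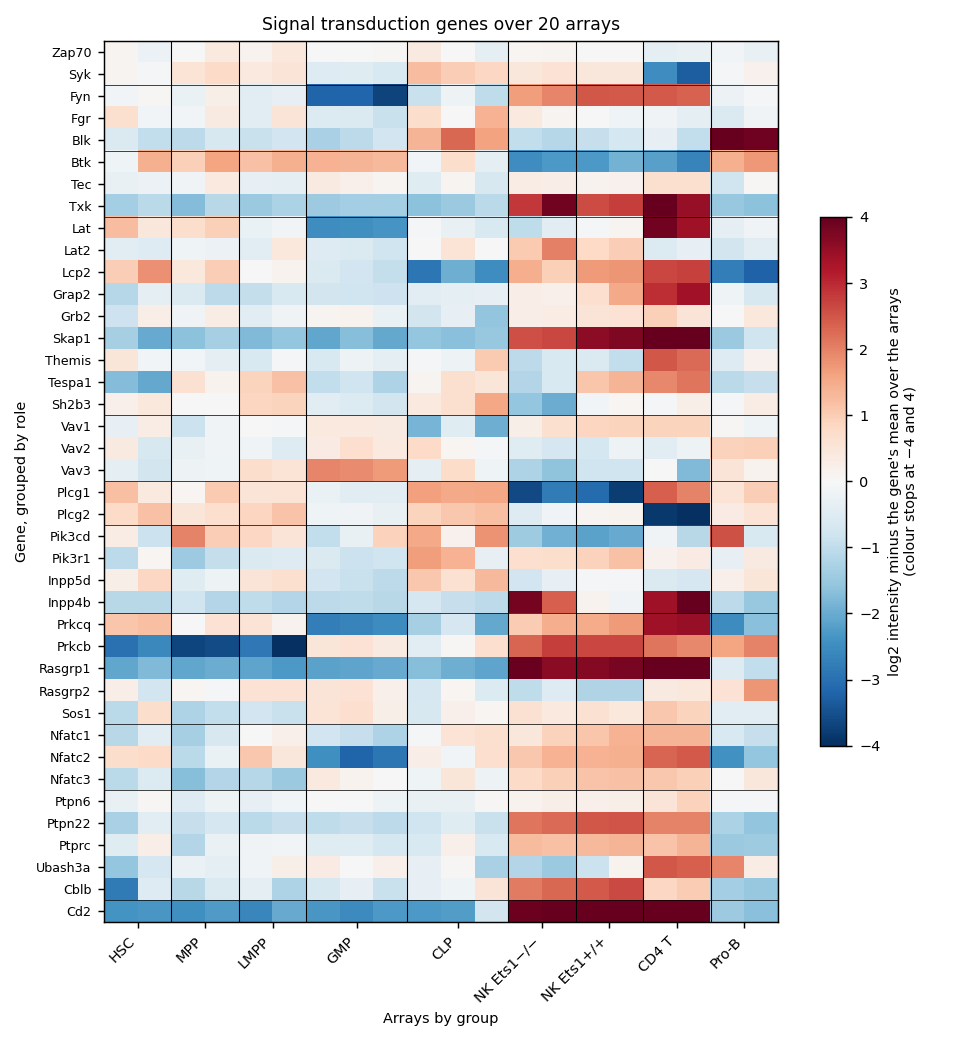
Log2 intensity of the 40 signalling genes (rows, grouped by role) on the 20 arrays (columns, by group), each value minus the mean of its gene over the arrays, with the colour scale ending at -4 and 4. Deep red in the CD4 T columns marks Txk, Lat, Grap2, Skap1, Inpp4b, Prkcq, Rasgrp1 and Cd2, among others. Plcg1 is blue in NK cells and red in CD4 T cells, and Plcg2 is blue in CD4 T cells and near its mean in NK cells.

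The series set out to find which genes need Ets1 in NK cells. Among the signalling genes the lipid phosphatase Inpp4b was higher in Ets1-deficient than in Ets1-present NK cells, and the adaptors Tespa1, Sh2b3 and Skap1 were lower. Thus 1 of 40 members was called higher and 3 lower at an adjusted p below 0.05 over all 13479 genes tested, where 1.59% of all genes were called higher and 2.23% lower. A further 4 members reached only an unadjusted p below 0.05, 8 in all, and the share of all genes that did so was not computed. The median difference of the members was -0.29 against 0.01 for all genes, and 29 of 40 (72.5%) lay below 0, against 48.6% of all genes. For 32 members (80.0%) the genotypes had no overlapping arrays, against 55.4% of all genes. The members were chosen with earlier results of these data known. Their shares are therefore not an independent comparison with all genes.

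Inpp4b encodes a phosphatase that removes a phosphate from phosphatidylinositol bisphosphate downstream of PI 3-kinase. Its log2 intensity was 8.14 and 6.70 in Ets1-deficient NK cells, against 4.47 and 4.18 in Ets1-present NK cells. Both Ets1-deficient arrays lay above both Ets1-present ones, though they also differed from each other. Ets1-deficient array 2 had an actin 3' excess of 4.07, against 2.76 to 2.90 on the other 3 NK arrays. Without it the difference was 3.82 for Inpp4b and -2.41 for Tespa1, both still called, and 1 member was called lower. The part of that excess in the other values was not tested. The difference was 3.09 ± 0.44 (SE, n = 2 each, adjusted p = 0.000226). Here and elsewhere the SE uses 1 spread per gene shared over all 9 groups, so it is not that of the NK arrays alone. The SD of Inpp4b was 1.02 in Ets1-deficient NK, 0.20 in Ets1-present NK and 1.26 in CD4 T cells. In the remaining groups, where the gene was dim, it was 0.01 to 0.33. CD4 T cells read 7.72 and 9.50, and every array of the other 6 groups lay between 2.79 and 3.65. A second Inpp4b probe set, near background in most groups, differed in the same direction by 0.82 ± 0.25 but was not called (adjusted p = 0.0827 over 29047 probe sets).

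Tespa1 encodes a thymocyte-expressed protein that takes part in T cell receptor signalling at the LAT complex. It read 5.26 and 5.83 in Ets1-deficient NK cells, against 7.55 and 7.79 in Ets1-present NK cells. The genotypes were well apart, and the Ets1-deficient values lay near those of pro-B cells (5.37 and 5.53) and GMP (5.20 to 5.66). The difference was -2.13 ± 0.29 (adjusted p = 0.000142). Another of its probe sets differed by -2.80 ± 0.42 (adjusted p = 0.000547 over probe sets), with 4.29 on both Ets1-deficient arrays against 7.21 and 6.97, and the remaining one, dim in both genotypes, by -0.39 ± 0.37.

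Sh2b3, which encodes the adaptor LNK, known as a brake on cytokine receptor signalling, read 6.14 and 5.69 in Ets1-deficient NK cells against 7.56 and 7.74 in Ets1-present NK cells. These 2 Ets1-deficient arrays were the lowest of all 20, and the Ets1-present ones lay close to the CD4 T and pro-B arrays. The difference was -1.74 ± 0.32 (adjusted p = 0.00285). Its adjusted p was 0.0538 (-1.65) without Ets1-present replicate 2 and 0.0554 (-1.51) without Ets1-deficient replicate 2. Skap1, an adaptor that couples the T cell receptor to integrins, read 7.78 and 7.87 in Ets1-deficient NK cells against 8.78 and 8.93 in Ets1-present NK cells, without overlap. Its difference of -1.03 ± 0.28 was close to the threshold (adjusted p = 0.0452) and passed it neither under quantile normalization (0.0508), without the filter on dim genes (0.0623), after centring on housekeeping genes (0.149), with the replicate block (0.0547), nor with any of the 4 NK arrays left out (-0.96 to -1.11).

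**Figure D2:**
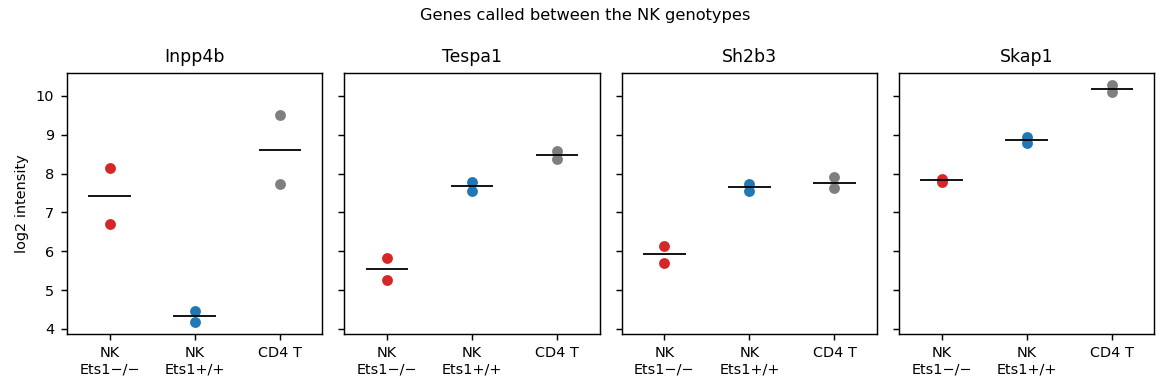
Log2 intensity of the 4 genes called between the NK genotypes, with each array as a point and the group mean as a line, for Ets1-deficient NK cells (Ets1−/−), Ets1-present NK cells (Ets1+/+) and CD4 T cells. The genotypes do not overlap for any of the 4 genes, and Inpp4b in Ets1-deficient NK cells (8.14 and 6.70) lies near CD4 T cells (7.72 and 9.50).

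The largest uncalled differences were -0.96 ± 0.48 for Ubash3a (adjusted p = 0.426), an inhibitor of T cell receptor signalling, -0.86 ± 0.30 for the adaptor Grap2 (0.149) and -0.74 ± 0.30 for Lat (0.261). Syk differed by 0.07 ± 0.27, Plcg1 by 0.25 ± 0.37 and Plcg2 by -0.45 ± 0.24, and none of the 16 paralog pair members was called. Nfatc1, which encodes a calcium-regulated transcription factor, depended on the probe set. Its probe set of highest mean differed by -0.57 ± 0.32 (adjusted p = 0.538), whereas 2 others were higher in Ets1-deficient NK cells, by 2.41 ± 0.27 (adjusted p = 2.34e-05) and 1.34 ± 0.27 (adjusted p = 0.00782). On the first of these the Ets1-deficient arrays read 7.78 and 7.48 against 5.34 and 5.09, and no other group's arrays exceeded 5.23. Which transcripts these probe sets match was not analysed here.

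Other genes of the pathway, 68 tested from a separate list, included 4 (5.88%) called lower and 0 higher between the genotypes by limma. Of all genes, 2.23% were called lower and 1.59% higher. An unadjusted p below 0.05 was reached by 10 of the list, without a share of all genes computed for it. The 4 called lower were the diacylglycerol kinase Dgka (-2.77 ± 0.36, adjusted p = 8.88e-05), the calcium channel Orai1 (-1.73 ± 0.44), the adaptor Grap (-1.49 ± 0.39) and the calcium release channel Itpr2 (-1.38 ± 0.37). Of the 8 myeloid markers measured, 6 were also called lower in Ets1-deficient NK cells. The list summed to 1099 to 1304 linear intensity units in Ets1-deficient against 2474 to 2535 in Ets1-present NK cells. It includes Fcer1g (9.61 in Ets1-present and 9.44 in Ets1-deficient NK cells) and Ltf, both with their highest means in NK cells. NK markers summed to 24188 to 25952 against 21265 to 22308, T markers to 406 to 436 against 460 to 480 and B markers to 91 to 98 against 90 to 99. The part of these shifts in the differences of the signalling genes was not tested.

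Ets1 binds DNA with a GGAA core, so promoters of genes called between the NK genotypes are shown, from 250 bases before to 50 bases after the gene's start in RefSeq (GRCm38.p6). They are those of Inpp4b (chr8:81342312-81342611, plus strand) and Sh2b3 (chr5:121836055-121836354, minus strand), each written 5' to 3' on the strand of its gene. Those of Tespa1 and Skap1 were not used here. Capitals mark AGGAAG, which was searched with CGGAAG on both strands.
Inpp4b: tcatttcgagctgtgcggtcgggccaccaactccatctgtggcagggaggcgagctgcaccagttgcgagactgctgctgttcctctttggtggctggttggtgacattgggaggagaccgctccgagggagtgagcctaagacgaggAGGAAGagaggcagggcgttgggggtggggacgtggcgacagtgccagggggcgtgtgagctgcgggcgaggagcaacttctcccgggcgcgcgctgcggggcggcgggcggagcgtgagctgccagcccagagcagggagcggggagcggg
Sh2b3: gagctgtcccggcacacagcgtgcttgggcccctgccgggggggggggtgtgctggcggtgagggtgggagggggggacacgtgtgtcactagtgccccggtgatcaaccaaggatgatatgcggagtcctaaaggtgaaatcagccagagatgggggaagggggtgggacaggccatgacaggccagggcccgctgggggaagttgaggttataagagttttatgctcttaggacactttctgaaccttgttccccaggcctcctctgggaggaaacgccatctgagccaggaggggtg
The Inpp4b window held AGGAAG at 1 position and CGGAAG at none, and the Sh2b3 window held neither. The GGAA core alone was not counted. It also occurs outside the capitals, on one strand or the other, in both windows. Of 32851 promoter windows of the same length, 35.4% held AGGAAG and 16.9% held CGGAAG. Among 50 windows of the 34 members with an entry, 26 (52.0%) held AGGAAG and 6 (12.0%) held CGGAAG. A match is a description of the letters and not a binding site.

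T and B lineage cells of the same strain were compared next, since several of these genes are paralogs known for use in one lineage or the other. Pro-B cells are an early stage and CD4 T cells a mature one. Lineage and stage of maturation therefore cannot be told apart here, nor between NK and pro-B cells. CD4 T cells were higher than pro-B cells for most of the module: 22 of 40 members were called higher and 7 lower, where 17.0% of all genes were called higher and 11.8% lower. The median difference of the members was 1.16, against 0.00 for all genes. By role, 6 of 9 adaptors and all 5 genes grouped as tyrosine phosphatases or brakes were called higher. So were 3 of 5 protein kinase C and Ras activator genes and 2 of 3 NFAT genes. None of these 4 groups held a gene called lower. The group of 5 includes Ptprc, which activates Src family kinases and is not counted as a brake here. Of the brakes, Ptpn6 lost its call under 5 alternatives and Ubash3a (1.31) under 6, with Ubash3a at 0.48 (adjusted p = 0.578) without pro-B array 2. The genes lower in CD4 T cells were Blk, Plcg2, Btk, Syk, Vav2, Vav3 and Inpp5d, which are kinases, lipid enzymes and exchange factors. Many of the listed adaptors are known from T cell receptor signalling. The adaptors Blnk, Gab2 and Pik3ap1, lower in CD4 T cells, stand on a separate list of other pathway genes. On that list 35 of 68 were called higher and 7 lower. The shares called, in all and by role, therefore depend on which genes were listed.

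Cd2, an adhesion receptor of T and NK cells, read 11.31 and 11.04 in CD4 T cells against 3.75 and 3.51 in pro-B cells. The difference was 7.55 ± 0.39 (adjusted p = 4.79e-11). The pro-B values lay below the array medians (3.78 to 4.04), so its size is limited by the dim end of the scale, as it is for other genes with a group near those medians. Next in size came Rasgrp1 (6.18 ± 0.25), Skap1 (6.12 ± 0.28), the SLP-76 gene Lcp2 (5.71 ± 0.34), Inpp4b (5.59 ± 0.44), Prkcq (5.53 ± 0.37), the Tec family kinase Txk (5.30 ± 0.31) and Nfatc2 (4.38 ± 0.36). Lcp2 read 10.05 and 10.12 in CD4 T cells and only 4.61 and 4.13 in pro-B cells, the group of lowest mean for this gene.

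In the opposite direction stood Blk, a Src family kinase of B cells, with 3.61 and 2.95 in CD4 T cells against 7.92 and 7.83 in pro-B cells (-4.60 ± 0.29, adjusted p = 7.46e-10). The pro-B arrays were the highest of all 20 for Blk. Plcg2 (-4.46 ± 0.24), Btk (-4.01 ± 0.42) and Syk (-2.94 ± 0.27) followed. Smaller differences were called for Vav2 (-1.24 ± 0.33), Vav3 (-1.19 ± 0.43) and the lipid phosphatase Inpp5d (-0.97 ± 0.27). The CD4 T arrays of Vav3 read 7.48 and 5.70, so its value rested on array 2 and was -0.31 (adjusted p = 0.668) without it.

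The phospholipase C gamma genes changed in opposite directions between NK and CD4 T cells. Plcg1 read 9.57 and 9.18 in CD4 T cells against 7.74 and 8.18 in pro-B cells, a difference of 1.42 ± 0.37 (adjusted p = 0.00594). Plcg2 read 5.98 and 5.65 in CD4 T cells against 10.16 and 10.38 in pro-B cells (adjusted p = 8.96e-11). CD4 T cells were thus the highest group for Plcg1 and the lowest for Plcg2. In NK cells Plcg1 was at 3.59 and 4.40 in Ets1-deficient and 4.11 and 3.38 in Ets1-present NK cells, the lowest of the 9 groups, and Plcg2 at 9.32 and 9.69 and at 9.94 and 9.98. NK minus CD4 T was -5.51 ± 0.32 for Plcg1 (adjusted p = 1.26e-10) and 3.92 ± 0.21 for Plcg2 (adjusted p = 5.07e-11). Plcg1 in NK cells lay about the array medians, so the sizes that use it are limited by the dim end of the scale. The difference Plcg1 minus Plcg2 within an array changed by 5.87 between CD4 T and pro-B cells and by -9.43 between NK and CD4 T cells, without overlap of arrays. Levels cannot be compared between probe sets, so only such changes are read. The other 2 Plcg1 probe sets stayed between 3.11 and 4.39 on all 20 arrays, and the mean over the 3 ended the call between CD4 T and pro-B cells (0.38, adjusted p = 0.149).

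Syk, in contrast to Plcg1, was high in NK cells. It read 6.65 and 5.83 in CD4 T cells, below every other array of the series, against 9.07 and 9.29 in pro-B cells. In NK cells it was at 9.59 and 9.71 (Ets1-deficient) and 9.58 and 9.59 (Ets1-present), 3.38 ± 0.23 above CD4 T cells (adjusted p = 1.19e-09) and 0.44 ± 0.23 above pro-B cells (adjusted p = 0.157). All 4 Syk probe sets were called higher in NK than in CD4 T cells, by 1.28 to 3.99.

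Zap70 could not be read from its probe set of highest mean. On it, all 20 arrays lay between 5.78 and 6.62, the CD4 T mean was the lowest of the 9 groups, and no comparison was called, which made Zap70 the only member called in none of the 8. Its other 2 probe sets, examined after these values were seen, followed the T and NK lineages. On one of them it read 8.38 and 8.25 in CD4 T cells against 5.76 and 5.09 in pro-B cells, a difference of 2.89 ± 0.31 (adjusted p = 1.04e-06 over probe sets). On the other, an _x_at probe set, it read 6.83 and 7.07 against 4.85 and 5.33 (1.86 ± 0.27, adjusted p = 3.47e-05). Both were higher in NK than in pro-B cells (1.86 and 3.06), with no group other than NK, CD4 T and pro-B above 4.79 on any array. Between NK and CD4 T cells they went opposite ways, -1.03 ± 0.27 (adjusted p = 0.00675) and, on the _x_at probe set, 1.20 ± 0.23 (adjusted p = 0.000675), so these data give no direction for Zap70 there. Such a probe set can hold probes that also match other transcripts. Between the NK genotypes the same probe sets differed by -0.89 ± 0.31 and -0.88 ± 0.27 and were not called (adjusted p = 0.14 and 0.0804).

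**Figure D3:**
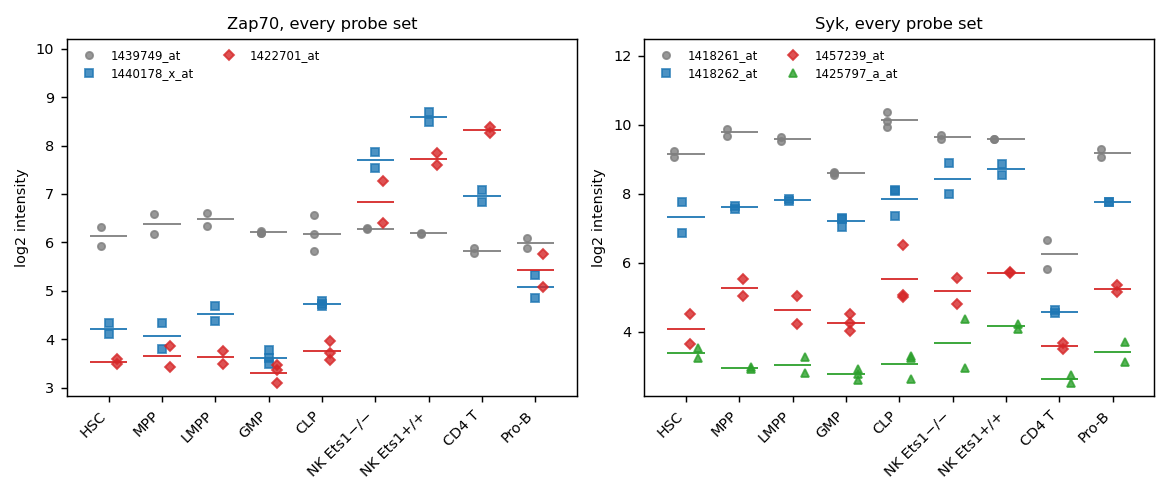
Log2 intensity on every probe set of Zap70 (left) and Syk (right) over the 9 groups, with each array as a point and the group mean as a line. The grey Zap70 probe set, of highest mean, stays between 5.78 and 6.62, the other 2 rise in NK and CD4 T cells, and all Syk probe sets are lowest in CD4 T cells. Levels cannot be compared between probe sets.

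Among the Tec family kinases, Txk and Btk divided the groups cleanly. Txk read 8.63 and 8.14 in CD4 T cells and 7.48 and 8.51 in Ets1-deficient and 7.25 and 7.41 in Ets1-present NK cells, and lay between 2.92 and 3.58 on each of the other 14 arrays. Btk read 4.52 and 3.99 in CD4 T cells and 4.19 to 4.80 in NK cells, against 8.11 and 8.42 in pro-B cells, and between 6.30 and 8.24 in the progenitors. NK minus CD4 T was -0.72 ± 0.27 for Txk (adjusted p = 0.0505) and 0.18 ± 0.37 for Btk (adjusted p = 0.774). Txk minus Btk changed by 9.31 between CD4 T and pro-B cells and by 8.40 between NK and pro-B cells. Tec varied little and was 1.02 ± 0.31 higher in CD4 T than in pro-B cells (adjusted p = 0.0163), a call that ended without pro-B array 1 (0.60).

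Rasgrp1, an activator of Ras through diacylglycerol, followed the same division as Txk. It read 10.71 and 10.68 in CD4 T cells, 9.23 and 8.88 in Ets1-deficient NK cells and 8.95 and 9.09 in Ets1-present NK cells, against 4.75 and 4.28 in pro-B cells and 2.97 to 3.58 in the progenitors. Its paralog Rasgrp2 had its highest mean in pro-B cells (7.84 and 9.05) and its lowest means in NK cells (6.06 to 6.77), with NK minus pro-B at -2.16 ± 0.33 (adjusted p = 4.29e-05) and CD4 T minus pro-B at -0.77 ± 0.38 (adjusted p = 0.147). Prkcq, the protein kinase C of the T cell synapse, read 11.12 and 11.23 in CD4 T cells, against 5.23 and 6.05 in pro-B cells. NK cells lay between them at 8.74 to 9.45, next to the HSC arrays at 8.84 and 8.93. Prkcb, the form known from B cells, was called in neither comparison with pro-B cells: CD4 T minus pro-B was 0.27 ± 0.37 and NK minus pro-B 0.83 ± 0.32.

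**Figure D4:**
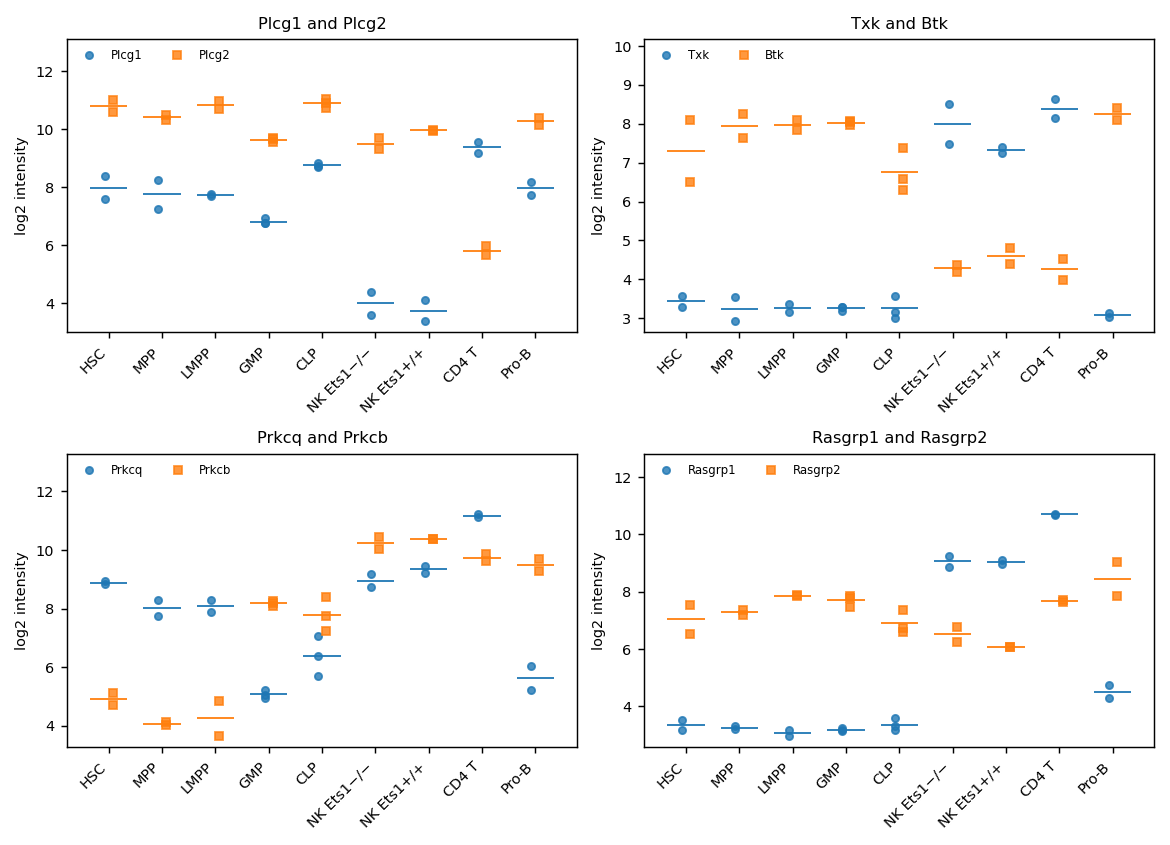
Log2 intensity of 4 paralog pairs over the 9 groups, with each array as a point and the group mean as a line. Plcg1 and Plcg2 cross between NK and CD4 T cells, Txk and Rasgrp1 are high in NK and CD4 T cells only, and Prkcb is low in HSC, MPP and LMPP (3.66 to 5.14). Heights of the 2 genes of a pair are not comparable, only their changes between groups.

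Of the LAT family adaptors, Lat read 10.83 and 10.37 in CD4 T cells, above every other array, against 6.61 and 6.83 in pro-B cells (3.88 ± 0.30, adjusted p = 9.76e-09). NK cells did not share this level. Lat was at 5.98 and 6.53 in Ets1-deficient and 6.89 and 7.09 in Ets1-present NK cells, and NK minus CD4 T was -3.98 ± 0.26 (adjusted p = 7.6e-10). Lat2, an adaptor known from B and myeloid cells, was highest in NK cells on its probe set of highest mean. There it read 4.97 and 5.93 (Ets1-deficient) and 4.72 and 4.91 (Ets1-present). CD4 T cells read 3.36 and 3.58 and pro-B cells 3.17 and 3.45. This probe set was dim, above the array median on only 6 of 20 arrays. The other Lat2 probe sets had their highest means in CLP (4.54 and 4.02). In NK cells these averaged 3.52 and 3.85 (Ets1-present) and 3.27 and 3.26 (Ets1-deficient), against 3.49 and 3.60 in pro-B cells. Myeloid markers were also higher in NK cells, with 6 of 8 called higher than in CD4 T cells and 8 of 8 higher than in pro-B cells. They summed to 1099 to 2535 linear intensity units on the NK arrays, against 505 to 508 in CD4 T and 156 to 209 in pro-B cells. The part of these marker levels in the higher Lat2, Syk and Plcg2 of NK cells was not tested. Lat2 was called higher in NK than in CD4 T cells (1.66 ± 0.27, adjusted p = 8.19e-05) and than in pro-B cells (1.82 ± 0.27, adjusted p = 2.5e-05). Lat minus Lat2 changed by 3.72 between CD4 T and pro-B cells and by -1.92 between NK and pro-B cells.

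The remaining pairs moved less. Vav1, the exchange factor of haematopoietic cells, was at 8.34 on both CD4 T arrays and at 7.52 and 7.29 in pro-B cells, which was not called (0.94 ± 0.39, adjusted p = 0.0812). Vav1 minus Vav3 was 0.87 and 2.64 on the CD4 T arrays, against -0.44 and -0.32 on the pro-B arrays, and 1.5 to 2.23 in NK cells, between the uneven CD4 T arrays. Nfatc1 and Nfatc2 were both called higher in CD4 T than in pro-B cells, by 2.13 ± 0.32 and 4.38 ± 0.36. They were called higher in NK than in pro-B cells too, by 1.74 ± 0.28 and 3.30 ± 0.31.

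NK cells, taken as the mean of both genotypes, had lower levels than CD4 T cells for much of the set: 15 of 40 members were called lower and 4 higher, where 13.2% of all genes were called lower and 16.8% higher. The median difference was -0.40, against 0.04 for all genes. Of the 9 adaptors, 7 were called lower and 1, Lat2, higher. These counts too depend on which genes were listed. The members lower in NK cells were led by Plcg1, Lat, Ubash3a (-3.28 ± 0.41), Themis (-3.18 ± 0.31), Inpp4b (-2.74 ± 0.38), Grap2 (-2.49 ± 0.26), Prkcq (-2.03 ± 0.32) and Tespa1 (-1.87 ± 0.25). Inpp4b, Tespa1, Sh2b3 and Skap1, all called lower here, were also called between the NK genotypes. The Inpp4b arrays of Ets1-deficient NK cells overlapped those of CD4 T cells. Sh2b3 (-0.98 ± 0.28) averaged 7.65 in Ets1-present NK cells, near the 7.76 of CD4 T cells, and 5.91 in Ets1-deficient NK cells.

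Themis, a thymocyte protein of T cell receptor signalling, read 3.14 and 3.58 in Ets1-deficient and 3.60 and 3.21 in Ets1-present NK cells, against 6.67 and 6.46 in CD4 T cells, which were the highest arrays of the series. The genes higher in NK cells were Plcg2, Syk, Lat2 and Cblb, a ubiquitin ligase that limits activation. Cblb read 9.62 to 10.16 on the 4 NK arrays, against 8.35 and 8.55 in CD4 T cells (1.46 ± 0.44, adjusted p = 0.0161), and lost its call without either CD4 T array (1.36 and 1.56). Skap1 was called lower in NK cells on its probe set of highest mean (-1.85 ± 0.24) and higher on another (3.10 ± 0.60, adjusted p = 0.000674), whose CD4 T arrays read 6.65 and 3.03. The Src family kinase Fyn, which phosphorylates receptor chains, read 9.96 to 10.75 in NK cells and 10.73 and 10.63 in CD4 T cells and was not called.

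Against pro-B cells, NK cells were higher for 18 of 40 members and lower for 10, where 22.2% of all genes were called higher and 12.6% lower, and the median was 0.74 against 0.03. The largest rises were in Cd2 (5.97 ± 0.34), Txk (4.58 ± 0.27), Rasgrp1 (4.52 ± 0.21), Lcp2 (4.48 ± 0.30), Skap1 (4.27 ± 0.24), Cblb (3.81 ± 0.44), the phosphatase Ptpn22 (3.77 ± 0.24) and Prkcq (3.51 ± 0.32). The largest falls were in Blk (-4.88 ± 0.25), Plcg1 (-4.09 ± 0.32), Btk (-3.83 ± 0.37), the PI 3-kinase subunit gene Pik3cd (-2.84 ± 0.67), Rasgrp2 (-2.16 ± 0.33), Ubash3a (-1.97 ± 0.41), Vav2 (-1.44 ± 0.29) and Vav3 (-1.43 ± 0.37). Pik3cd was uneven among replicates, with 11.09 and 7.93 on the pro-B arrays. Without pro-B array 1 its difference was -1.26 (adjusted p = 0.184), that of Ubash3a -1.15 (0.07) and that of Vav3 -1.26 (0.0708), and the count of lower members was 6. Another Pik3cd probe set was higher in NK than in pro-B cells (0.69 ± 0.25, adjusted p = 0.0454 over probe sets). Some calls against pro-B cells came mainly from 1 NK genotype. Tespa1 (1.16 ± 0.25, called higher) averaged 7.67 in Ets1-present and 5.54 in Ets1-deficient NK cells, against 5.45 in pro-B cells. Sh2b3 (-1.0 ± 0.28, called lower) averaged 7.65 and 5.91, against 7.78 in pro-B cells.

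The comparisons of CD4 T with pro-B, NK with CD4 T and NK with pro-B cells share arrays pairwise, so their values are not independent of each other. For the phosphatases, Ptpn22 read 9.49 on both CD4 T arrays and 9.63 to 10.01 in NK cells against 6.22 and 5.93 in pro-B cells. Ptprc, which encodes CD45 and activates Src family kinases, read 12.66 and 12.88 in CD4 T and 12.70 to 12.88 in NK cells, against 10.05 and 10.11 in pro-B cells. Ptpn6, which encodes the inhibitory phosphatase SHP-1, varied by only 1.08 over the group means and was 0.79 ± 0.25 higher in CD4 T than in pro-B cells (adjusted p = 0.02). That call ended under 5 alternatives, with values of 0.60 to 0.80.

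**Figure D5:**
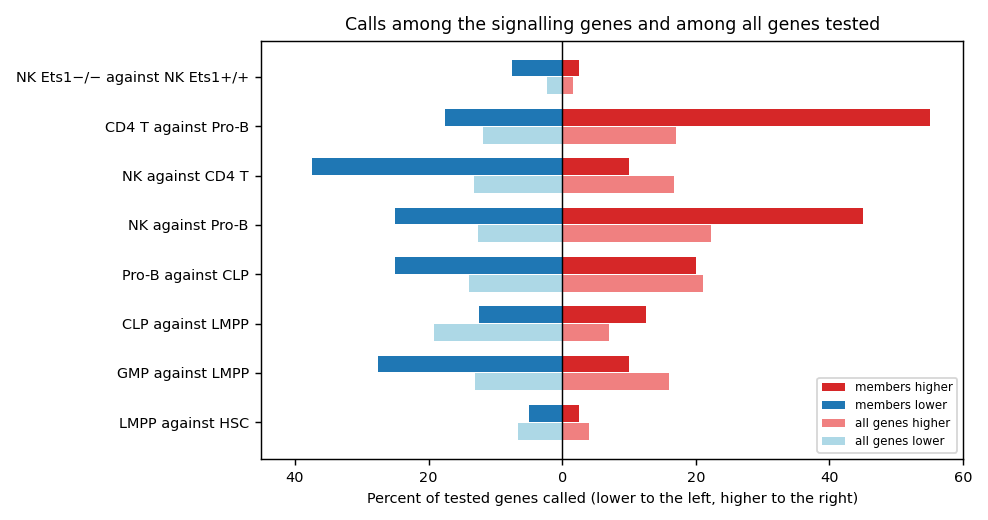
Percent of the 40 signalling genes (dark bars) and of all 13479 genes tested (light bars) called lower (blue, to the left) and higher (red, to the right) in the first-named group of each of 8 comparisons. CD4 T against pro-B cells has the largest share of members called higher (55.0%, against 17.0% of all genes). The NK genotypes have among the smallest shares in both directions. Shares of members depend on which genes were listed.

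Among the progenitors LMPP were compared with HSC, and CLP with LMPP, and levels alone are given for MPP. Between LMPP and HSC 1 of 40 (2.5%) was called higher and 2 (5.0%) lower, near the 4.08% and 6.57% of all genes, and repeated quantile normalization gave 3 higher and 1 lower. Tespa1 was at 4.72 and 4.40 in HSC, 7.05 and 6.60 in MPP, 7.34 and 7.61 in LMPP and 6.55 to 7.09 in CLP, with HSC below every other array of the series. LMPP minus HSC was 2.92 ± 0.29 for Tespa1 (adjusted p = 1.67e-06), and Tespa1 was called in 7 of the 8 comparisons. Lcp2 (-1.34 ± 0.34) and Lat (-1.02 ± 0.30) were lower in LMPP than in HSC, both calls that ended with single arrays left out. All 3 erythroid markers tested were also called lower in LMPP. The part of that signal in these differences was not tested.

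CLP minus LMPP called 5 members higher and 5 lower (6.96% and 19.2% of all genes), but centring on housekeeping genes gave 23 higher and 2 lower, quantile normalization 9 and 3, and CLP array 2 alone 4 and 1. Prkcb was higher, at 7.24, 7.74 and 8.39 in CLP against 4.85 and 3.66 in LMPP (3.53 ± 0.34), as was Blk, at 5.29, 6.22 and 5.54 against 3.04 and 3.18 (2.57 ± 0.27). CLP array 2 shared both differences. Nfatc3 (1.35 ± 0.28), the PI 3-kinase regulatory subunit gene Pik3r1 (1.45 ± 0.44) and Plcg1 (1.03 ± 0.33) were called higher too. All 3 lost their calls when probe sets were averaged (0.38, 0.66 and 0.30), Pik3r1 and Plcg1 also without either LMPP array or CLP array 1, and Plcg1 also without CLP array 3 and on CLP array 2 alone (0.99, adjusted p = 0.195). Lcp2 was lower, at 4.49, 5.41 and 4.90 in CLP against 7.35 and 7.53 in LMPP (-2.50 ± 0.31). Prkcq (-1.70 ± 0.34), Vav1 (-1.39 ± 0.36), Btk (-1.22 ± 0.39) and Rasgrp2 (-0.96 ± 0.35) were called lower, and none of these 4 was called on CLP array 2 alone. Vav1 was at 6.98 on CLP array 2 and at 5.60 and 5.51 on CLP arrays 1 and 3, which had the higher actin 3' excess. The part of that excess in these calls was not tested.

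Pro-B cells against CLP had 8 members called higher and 10 lower (21.1% and 14.0% of all genes), with 6 and 19 after centring on housekeeping genes and 3 and 9 on CLP array 2 alone. Blk was higher again (2.19 ± 0.27, adjusted p = 8.13e-06), so that it read 3.04 and 3.18 in LMPP, 5.29 to 6.22 in CLP and 7.92 and 7.83 in pro-B cells. Prkcb (1.69 ± 0.34), Ubash3a (1.66 ± 0.44), Rasgrp2 (1.55 ± 0.35), Btk (1.51 ± 0.39), Vav1 (1.38 ± 0.36), Rasgrp1 (1.16 ± 0.23) and the adaptor Grb2 (1.10 ± 0.35) were the others. Another probe set was called the opposite way for Grb2 (-0.87 ± 0.26, adjusted p = 0.0188) and for Rasgrp2 (-1.30 ± 0.30, adjusted p = 0.00394). Nfatc2 was lower, at 4.69 and 5.54 in pro-B cells against 7.38, 6.98 and 7.77 in CLP (-2.26 ± 0.33, adjusted p = 5.32e-05). Cblb (-1.44 ± 0.46), Tespa1 (-1.41 ± 0.27), Nfatc1 (-1.15 ± 0.30), Ptprc (-1.10 ± 0.28), Fgr (-1.06 ± 0.36), Syk (-0.95 ± 0.24) and Lat2 (-0.77 ± 0.28) followed. Of these 18 calls, 13 ended under at least 1 alternative.

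Between GMP and LMPP, 11 of 40 members were called lower, 4 higher and 25 neither, where 13.0% of all genes were called lower and 16.0% higher. The median difference was -0.17, against -0.04 for all genes, and -0.00 against 0.13 after centring on housekeeping genes. Nfatc2 was at 4.66, 3.91 and 4.22 in GMP against 8.17 and 7.54 in LMPP (-3.59 ± 0.33, adjusted p = 1.85e-07), and Fyn at 5.07, 5.10 and 4.58 against 7.84 and 7.95 (-2.98 ± 0.27). GMP were the lowest group for both genes, without overlap with LMPP. Prkcq (-3.00 ± 0.34), Lat (-2.25 ± 0.28), Tespa1 (-2.03 ± 0.27), Inpp5d (-1.47 ± 0.25), Sh2b3 (-1.46 ± 0.29) and Plcg2 (-1.21 ± 0.22) were lower as well. Prkcb was higher, at 8.20, 8.28 and 8.08 in GMP (3.93 ± 0.34, adjusted p = 8.01e-08), followed by Nfatc3 (1.49 ± 0.28), the Ras exchange factor Sos1 (1.33 ± 0.37) and Vav3 (1.23 ± 0.39). Vav3 read 9.42, 9.36 and 9.16 in GMP, the highest arrays of the series, and its call ended with either LMPP array left out. So did that of Sos1, which was 0.05 (adjusted p = 0.834) with its probe sets averaged and -0.77 ± 0.27 (adjusted p = 0.0433) on another probe set, and Nfatc3 was 0.44 (adjusted p = 0.192) with probe sets averaged. GMP arrays had the largest actin 3' excess of the series (6.44 to 6.68), whose part in these values was not tested.

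How far 1 probe set stands for its gene was examined over the 104 probe sets of the members, of which 91 were tested. For 12 members another probe set was called in the direction opposite to the main one, in 25 cases over the 8 comparisons, and in 6 of these both were called. Beside Zap70, Skap1, Nfatc1 and Pik3cd these included the phosphatase Ptpn6, with -1.37 ± 0.28 for CLP minus LMPP on another probe set, and Rasgrp2, with 1.88 ± 0.30 there. Values of these genes are therefore tied to the probe set used.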

How the data were processed

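RNA from 20 sorted samples was hybridised to Affymetrix mouse arrays. The deposited table holds 1 linear intensity per probe set and array for 45101 probe sets, made by the authors with RMA per the submitters' processing notes. The sources used here do not give the version of RMA. The design had assumed log2 values, so log2 of the deposited intensities was taken first. Array medians lay between 3.78 and 4.04. Of the probe sets, 34958 had 1 gene symbol in the platform table, 932 several and 9211 none, and 34754 matched a RefSeq gene (GRCm38.p6). Each gene was read from its single-symbol probe set of highest mean. Genes above the median of an array on 2 or more arrays were tested, 13479 in all, and 4715 were left out as dim. Of the 40 members found, 31 had several probe sets, and 29 lay above the median on all 20 arrays.

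One model over 9 groups was fitted with limma 3.58.1 in R 4.3.3 (lmFit, eBayes with an intensity trend, 11 residual degrees of freedom), with Benjamini-Hochberg adjustment over all genes and calls at an adjusted p below 0.05. The number of arrays, 2 or 3 a group, limits the precision. The method was tested on simulated data. All members of paralog pairs, members called between the NK genotypes with the 3 next largest, up to 8 called members per direction elsewhere, and the 5 widest and 5 narrowest ranges are named. Genes named beyond this rule were chosen after their values were seen. Members, lists and tests were chosen with earlier results of these data known. Alternatives were the filter, the mean of probe sets, no trend, quantile normalization, housekeeping centring, the replicate number as a block, CLP array 2 alone, and leaving out each array. Each probe set was fitted on its own (29047 tested) after the values had been seen. Promoters and RefSeq names came from RefSeq tables.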

Additional observations from a re-analysis of the deposited data

How the results depend on the processing

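The calls of CD4 T against pro-B and of NK against CD4 T cells kept their counts within 1.5 times of the main ones under every alternative run, and those of NK against pro-B cells did so except for 6 lower without pro-B array 1 (the range without single arrays was 6 to 11). Without single arrays the count of members lower between the NK genotypes was 1 or 2. The counts ranged over 4 to 10 lower and 5 to 9 higher for pro-B against CLP, 3 to 7 higher and 2 to 7 lower for CLP against LMPP, 2 to 4 higher for GMP against LMPP, and 1 to 4 higher and 0 to 2 lower for LMPP against HSC. Centring on housekeeping genes gave 19 lower for pro-B against CLP and 23 higher and 2 lower for CLP against LMPP. CLP array 2 alone gave 3 higher for pro-B against CLP and 1 lower for CLP against LMPP. Quantile normalization gave 9 higher and 3 lower for CLP against LMPP, and 3 higher and 1 lower for LMPP against HSC. Averaging the probe sets of each gene gave 3 higher for CLP against LMPP, 2 for GMP against LMPP and 2 for LMPP against HSC. It reversed Zap70 for CD4 T against pro-B (1.53) and pro-B against CLP (0.61) and Ptpn6 for CLP against LMPP (-0.67), as did housekeeping centring Ptprc for CLP against LMPP (0.64). Single Zap70 probe sets were reversed at 1.86 and 2.89 for CD4 T against pro-B, -1.03 for NK against CD4 T and 1.68 for pro-B against CLP. Replicate numbers did not pair the samples (correlations of deviations -0.05 to 0.13). With the replicate number as a block 122 member calls remained, and 4 did not, namely Skap1 between the NK genotypes (-1.03), Fgr for pro-B against CLP (-0.94), Rasgrp2 for CLP against LMPP (-0.86) and Plcg1 for GMP against LMPP (-0.89). Causes were not tested. A contrast with fewer arrays also has a larger error.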

Other observations

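Other genes of the pathway, 68 tested from a list separate from the 40 members, were compared between NK, CD4 T and pro-B cells. Between CD4 T and pro-B cells 35 (51.5%) were called higher and 7 (10.3%) lower, against 17.0% and 11.8% of all genes, with Cd5 (7.02 ± 0.26, SE), an inhibitory receptor of T cells, the adaptor Fyb (6.79 ± 0.43) and Sh2d1a (6.01 ± 0.23), which encodes SAP, in front. The B cell linker Blnk (-4.69 ± 0.37), the adaptor Gab2 (-3.78 ± 0.38) and Pik3ap1 (-3.53 ± 0.33), which encodes the adaptor BCAP, were lower. Between NK and CD4 T cells 12 (17.6%) were called higher and 22 (32.4%) lower, against 16.8% and 13.2% of all genes. Pik3ap1 averaged 10.30 in NK cells against 4.45 in CD4 T cells (5.85 ± 0.28), and Gab2 (3.43 ± 0.33) and Gab3 (2.70 ± 0.21) were also higher. Cd5 averaged 2.78 in NK cells against 10.92 in CD4 T cells (-8.15 ± 0.22), with the transmembrane adaptor Sit1 (-6.10 ± 0.26) and Cd6 (-5.25 ± 0.28) next. Between NK and pro-B cells 33 (48.5%, against 22.2% of all genes) were called higher, led by Gab3 (5.37 ± 0.21) and Sh2d1a (5.37 ± 0.20), and 8 (11.8%, against 12.6%) lower, led by Blnk (-6.37 ± 0.32) and Sit1 (-4.28 ± 0.26).

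Between pro-B cells and CLP 14 (20.6%) of these genes were called higher and 12 (17.6%) lower, against 21.1% and 14.0% of all genes, with Sit1 at 3.31 ± 0.27 and Malt1, part of the complex that links protein kinase C to NF-kappa B, at -2.91 ± 0.58. Between CLP and LMPP 10 (14.7%) were higher and 13 (19.1%) lower, against 6.96% and 19.2% of all genes, and Blnk averaged 9.31 in CLP against 4.53 in LMPP (4.78 ± 0.34). Between GMP and LMPP 11 (16.2%, against 16.0% of all genes) were higher, among them the PI 3-kinase gene Pik3cb (2.22 ± 0.34), and 15 (22.1%, against 13.0%) lower, among them Rhoh (-2.90 ± 0.39), a GTPase of lymphocytes. Between LMPP and HSC the GTPase gene Rac2 was the 1 gene called higher (1.02 ± 0.23), and 8 (11.8%, against 6.57% of all genes) were lower.

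Likeness of pattern was described by Pearson correlation over the 9 group means, which share arrays and normalization. For Syk the 5 genes most alike were Eef2k (0.951), Mypop (0.951), Cux1 (0.940), Pak4 (0.931) and Plcg2 (0.926), itself a member. For the flat Zap70 probe set they were Gnl2 (0.916), 5430427O19Rik (0.913), Slc16a11 (0.904), Cmtm7 (0.893) and Xkr5 (0.879), set against a range of only 0.65 in its own group means.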
